A study of Mus musculus with 6 samples.

Results

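The amino acid transporter families Slc1, Slc3, Slc6, Slc7, Slc36, Slc38 and Slc43 were examined in mouse pre-B cells that carry BCR-ABL1, a fusion tyrosine kinase that drives acute lymphoblastic leukaemia. Members were taken by gene symbol: every probe set assigned to 1 symbol of these families was kept, and the brightest probe set stood for a gene. This gave 60 genes of the 19936 genes tested, namely 7 Slc1a, 2 Slc3a, 18 Slc6a, 15 Slc7a, 4 Slc36a, 11 Slc38a and 3 Slc43a genes. Symbols ending in a further letter, such as Slc6a20a and Slc6a20b, fell outside the rule. Members were assigned by symbol alone, and brightness decided only which probe set stood for Slc38a1 and Slc38a9, which have 2 each. The choice of these families was made with earlier results of these data known.

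Total RNA was measured on 6 Affymetrix arrays. All cells were transformed with BCR-ABL1, labelled wild-type and came from C57Bl6 mice aged 4 weeks. In the empty vector group (3 arrays) they were transduced with pMIG, a retroviral vector that also encodes green fluorescent protein, and in the IKZF1 group (3 arrays) with pMIG-IKZF1, which adds Ikaros, a zinc finger protein that regulates lymphoid genes. Sorting for GFP followed 3 days after the transduction. The labels state neither the insert's species and isoform nor whether each array stands for a culture or animal of its own, so the p-values rest on a spread between samples that may be technical. Values are log2(intensity + 1), differences are IKZF1 minus empty vector on that scale, and the call is a Benjamini-Hochberg adjusted p under 0.05 over all genes in limma, without a block unless stated.

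Amino acid transporters differ in their substrates and in what drives them. Slc3 proteins are heavy chains that carry Slc7 light chains to the membrane as exchangers, and Slc1 and Slc38 proteins take up neutral or acidic amino acids with sodium. Most Slc6 proteins use sodium and chloride, and some Slc36 proteins use protons. The products of Slc43a1 and Slc43a2 are facilitators for large neutral amino acids. Several of these genes are known targets of ATF4, the transcription factor made when amino acid shortage or other stress leads to phosphorylation of the translation factor eIF2. Dividing lymphoid cells depend on imported essential amino acids, and some transporters of the lysosome also take part in amino acid sensing by the kinase mTORC1.

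For Ikzf1 itself the values were 11.85, 11.78 and 11.98 with the empty vector and 13.09, 13.14 and 13.06 with IKZF1. Of 11 measured pre-B cell markers (among them Cd79a, Igll1, Pax5 and Ebf1) all 11 lay above the background level described next, with 0 called in limma and 4 at an unadjusted p under 0.05, as 18.4% of all genes were. With a block by replicate number Vpreb2, a surrogate light chain gene, was called (-0.38, adjusted p = 0.030), as was 1 gene of the stromal list (higher). Of 10 myeloid markers 1 lay above it (Lyz2), of 5 erythroid markers 2, of 10 stromal markers 3 and of 10 T cell markers 6, with 0 called in each list and 1, 1, 2 and 1 at an unadjusted p under 0.05. The summed intensity ranged from 511 to 558 in the empty vector group and from 484 to 573 in the IKZF1 group for the myeloid list, from 299 to 306 and from 301 to 354 for the erythroid list, from 698 to 778 and from 770 to 943 for the stromal list, and from 4203 to 6924 and from 4975 to 5616 for the T cell list. The ranges of the stromal sums overlapped between 770 and 778. The T cell adaptor gene Lat had 10.08, 10.37 and 7.34 in the empty vector group and 9.02, 9.29 and 8.59 in the IKZF1 group, with empty vector 3 lowest of all, and was called without that array (-1.26, adjusted p = 0.024). Lat was named after its values were seen. Among the 10 T cell markers 7 had a difference above 0 without a block (70%, against 59.2% of all genes), with a median of 0.08. The part of these lists in the results was not tested.

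The background was taken from 1194 genes for olfactory and vomeronasal receptors, 95% of which had a mean over the 6 arrays below 6.18. Above this level lay 28 of the 60 transporter genes, and 32 did not. The genes just inside it were Slc38a5 (6.19) and Slc1a7 (6.22), and those just outside Slc1a2 and Slc6a12 (6.15 each). With the 99th percentile of the receptor genes (7.08) 21 lay above. Of all genes tested, 12650 lay above the 95th percentile.

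**Figure D1:**
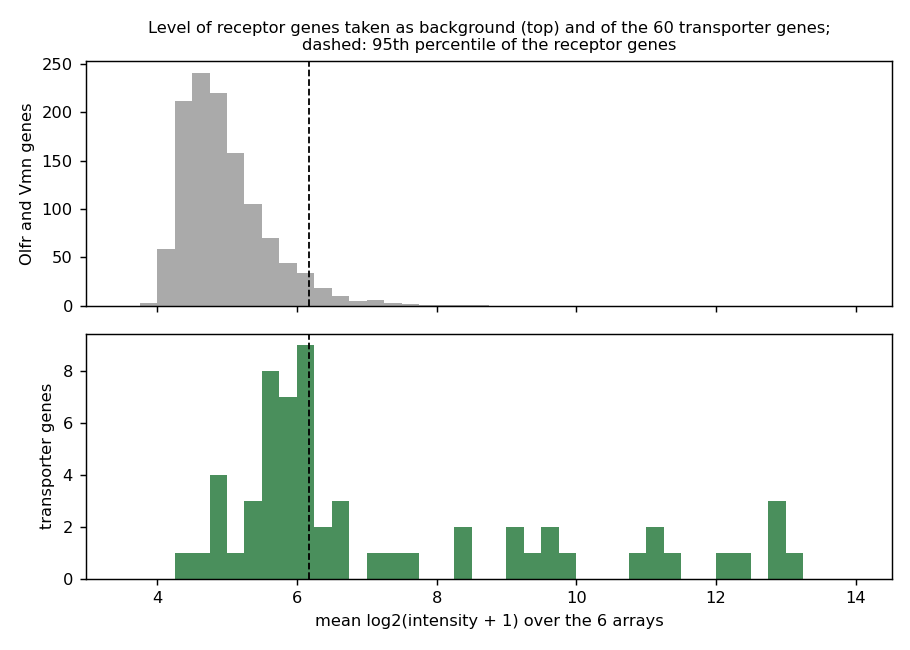
Histograms of the mean log2(intensity + 1) over the 6 arrays, for 1194 olfactory and vomeronasal receptor genes (top) and the 60 transporter genes (bottom), with the number of genes on the y axes. The dashed line is the 95th percentile of the receptor genes (6.18), and 28 transporter genes lie to its right.

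Of the 60 genes 4 fell with IKZF1 in limma, 1 rose and 55 did not pass. The genes that fell were Slc1a4, for the serine and alanine exchanger ASCT1, Slc3a2 and Slc7a5, for the chains of the large neutral amino acid exchanger LAT1, and Slc7a1, for the arginine and lysine carrier CAT-1. The gene that rose was Slc36a1, for the proton-coupled carrier PAT1. The 4 that fell are 6.67% of the families, where 1.13% of all genes tested were lower. As the families were chosen with earlier results of these data known, the shares here are a description and not a test. The 1 that rose is 1.67%, where 1.12% of all genes were higher, so that this share is near that of all genes. Among the 28 members above background 14.3% fell and 3.57% (1 gene) rose, against 1.75% and 1.67% of all genes above background. In either direction 2.25% of all genes and 3.42% of those above background passed. With replicate number as a block, 5 members were lower and 3 higher (8.33% and 5%), against 3.85% and 3.36% of all genes (7.21% in either direction). Of the members above background 17.9% were then lower and 10.7% higher. Of all genes above background 5.97% and 4.92% were (10.9% in either direction). In bulk RNA, fewer cells that express a gene and less of its RNA per cell cannot be told apart.

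Over the families as a whole the differences were small, and their balance moved with the scaling, as did that of all genes. The median difference of the 60 genes was 0.09 (0.03 over all genes tested), and 48 of 60 differences lay above 0, which is 80% against 59.2% of all genes. These included 29 of the 32 members not above background, and 19 of the 28 above it (67.9%, against 52% of all genes above background). With arrays centred on their medians the median was 0.00 (-0.05 over all genes). Then 30 of 60 (50%) lay above 0, against 35.7% of all genes. With cyclic loess the median was 0.03 (0.00 over all genes), and 38 of 60 (63.3%) lay above 0, against 51.2% of all genes. Over all genes, 49.8% of the calls were higher, and 29.6% with centring, where 1.46% of all genes were called lower and 0.617% higher.

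Empty vector 3 was the lowest of its group for each of the 4 transporter genes that fell and for Slc6a9, Slc38a7 and Slc7a3, but not for Atf4. It was the lowest for 16 of the 28 transporter genes above background and for 108 of the 225 genes called lower. Over all 19936 genes, those within the background range included, it was the lowest for 7441 (37.3%). The share among all genes above background was not counted. Without it 7 transporter genes passed as lower (Slc1a4, Slc3a2, Slc6a9, Slc7a1, Slc7a3, Slc7a5 and Slc38a7) and 0 as higher, Slc36a1 having an adjusted p of 0.051. Over all genes 947 passed without empty vector 3, in place of 448. Without any other array no transporter gene passed in either direction. The falls of Slc1a4, Slc7a1, Slc3a2 and Slc7a5 then lay between -1.87 and -0.59, with adjusted p from 0.053 to 0.16, and 24 to 163 of all genes passed in place of 448.

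Slc3a2 encodes 4F2hc (CD98), the heavy chain of the widely expressed exchangers. Its values were 13.39, 13.25 and 13.07 with the empty vector against 12.53, 12.57 and 12.60 with IKZF1. The IKZF1 arrays lay below every empty vector array and close to each other. Slc3a2 fell by 0.67 ± 0.09 (SE, n = 3 arrays per group; adjusted p = 0.023), or 1.59 times. The kidney and gut heavy chain gene Slc3a1 was within the background range (difference 0.12).

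Slc7a5 encodes LAT1, the light chain through which cells exchange glutamine for leucine and other large neutral amino acids. Its values were 13.31, 13.22 and 12.93 with the empty vector and 12.46, 12.52 and 12.47 with IKZF1. The groups did not overlap, and empty vector 3 was the lowest of its group. It fell by 0.67 ± 0.11 (SE; adjusted p = 0.035), as did its heavy chain. Log ratios of a pair of genes within an array were set against each other between the groups, since only their change, not their level, can be read across probe sets. That of Slc7a5 to Slc3a2 was -0.08, -0.03 and -0.14 in the empty vector group and -0.08, -0.05 and -0.13 in the IKZF1 group, so that the group means differed by 0.00 (2-sided exact permutation p = 1.0). This pair was chosen after the values were seen. With 3 arrays against 3 the smallest such p is 0.1, so nothing is concluded from it.

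The other light chain genes did not pass. Slc7a6, which encodes y+LAT2, an exchanger of cationic for neutral amino acids, read 11.32, 11.35 and 11.24 with the empty vector and 11.41, 11.46 and 11.39 with IKZF1. Its difference was 0.12 with a 95% interval from -0.03 to 0.26 (adjusted p = 0.35). The log ratio of Slc7a5 to Slc7a6 was 1.85 ± 0.15 (SD) in the empty vector group and 1.06 ± 0.02 in the IKZF1 group. These ratios did not overlap, and the exact permutation p was 0.1 (0.2 adjusted over 4 such ratios, chosen after the values were seen), the smallest that 3 arrays against 3 allow. Slc7a7, for y+LAT1, read 7.55, 7.97 and 6.32 against 7.13, 7.32 and 7.04, with the IKZF1 values inside the empty vector range. Its difference of -0.12 (interval -1.07 to 0.84) turned in sign without empty vector 1 (0.02) or empty vector 2 (0.23). Slc7a10, for the small neutral exchanger Asc-1, had 0.09 (adjusted p = 0.69). The cystine transporter gene Slc7a11 and the light chain gene Slc7a8 were within the background range, with 0.01 and 0.04.

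Slc7a1 encodes CAT-1, the main carrier of arginine and lysine in many cells, which needs no heavy chain. It read 11.40, 11.20 and 11.14 with the empty vector and 10.52, 10.60 and 10.60 with IKZF1. The groups were apart, and the difference was -0.67 ± 0.08 (SE; adjusted p = 0.019). The log ratio of Slc7a1 to Slc7a5 was -1.91 in each group, with SDs of 0.12 and 0.04 (exact permutation p = 1.0). This pair too was chosen after the values were seen, and nothing is concluded from that p. The further cationic carrier gene Slc7a3 lay just under the background level, at 6.48, 6.26 and 5.86 against 5.71, 5.91 and 5.88 (difference -0.37, adjusted p = 0.29). It passed without empty vector 3 (-0.54, adjusted p = 0.038).

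Slc1a4 encodes ASCT1, which exchanges serine, alanine, cysteine and threonine. It had the largest difference of the 5 called transporter genes. Its values were 10.47, 10.14 and 9.63 with the empty vector and 8.48, 8.34 and 8.09 with IKZF1. The lowest empty vector array lay well above the highest IKZF1 array. Slc1a4 fell by 1.78 ± 0.22 (SE; adjusted p = 0.019), or 3.44 times. Its closest relative Slc1a5, for the glutamine carrier ASCT2, read 12.17, 11.93 and 12.30 against 12.12, 11.91 and 12.27. Its groups overlapped fully, and the difference of -0.03 had a 95% interval from -0.34 to 0.28, with a sign that changed with cyclic loess (0.01). The log ratio of Slc1a4 to Slc1a5 was -2.05 ± 0.53 (SD) in the empty vector group and -3.80 ± 0.34 in the IKZF1 group. These did not overlap either (exact permutation p = 0.1, adjusted 0.2). Of the glutamate carriers, Slc1a7 (0.07) lay at the edge of the background and Slc1a1, Slc1a2, Slc1a3 and Slc1a6 within it, with differences from 0.04 to 0.17.

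The promoters of Slc1a4 and Slc7a11 are shown because both hold the core of the C/EBP-ATF response element, the composite site that ATF4 binds, while the first gene fell and the second stayed within the background range. The 8 letters TGATGCAA were searched on both strands in windows from 250 bases before to 50 after the RefSeq start (GRCm38.p6), and are in capitals, as read on either strand. The Slc1a4 stretch (chr11:20332710-20332813, minus strand) ends with the match, which spans the start site. The Slc7a11 stretch (chr3:50443614-50443713, minus strand) ends at the start site and holds 2 matches, 66 and 47 bases before it.
Slc1a4: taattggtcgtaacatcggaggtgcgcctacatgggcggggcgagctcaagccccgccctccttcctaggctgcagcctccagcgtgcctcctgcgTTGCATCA
Slc7a11: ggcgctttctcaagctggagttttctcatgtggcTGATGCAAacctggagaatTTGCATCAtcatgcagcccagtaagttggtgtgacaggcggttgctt

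These letters stand in 0.895% of 32851 promoter windows. Among the 60 members 43 genes had 64 windows, and 4 windows of 3 genes held them, the third gene being Slc7a7. With any base at the sixth place (TGATGNAA, which includes the first motif), they stand in 3.97% of all windows and in 5 windows of 4 members, with Slc6a21 added. The windows of Slc3a2, Slc7a1 and Slc6a9 held neither form, which says only that these letters are not in these windows, and no window of Slc7a5 was searched. The letters TGGGAA, a core that Ikaros proteins bind, stand in 25.6% of all windows and in a similar share of member windows. These were 17 of the 64, from 13 genes, Slc1a4 and Slc3a2 included. The others, none called without a block, were Slc1a7, Slc7a7, Slc7a11, Slc6a5, Slc6a12, Slc6a13, Slc6a17, Slc6a19, Slc38a4, Slc38a5 and Slc43a1. A match is a description and not a site of binding.

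Slc6a9 encodes GlyT1, a glycine carrier. It read 10.92, 10.83 and 9.26 with the empty vector and 8.24, 7.97 and 8.03 with IKZF1. The groups were apart, but empty vector 3 lay between the other 2 empty vector arrays and the IKZF1 arrays. The difference of -2.26 ± 0.43 (SE) was the largest of the 60 in size and did not pass (adjusted p = 0.057). It passed with replicate number as a block (adjusted p = 0.021) and, with that array left out, at -2.80 (adjusted p = 0.00026).

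Slc6a19 encodes B0AT1, a neutral amino acid carrier best known from kidney and gut. It moved the other way, with 8.10, 8.17 and 6.08 against 9.38, 9.45 and 8.55. Empty vector 3 was within the background range while the other 5 arrays were above it, and the groups were apart. The difference of 1.68 ± 0.58 (SE) did not pass (adjusted p = 0.21) and passed with the block (adjusted p = 0.023), the differences within numbers being 1.28, 1.29 and 2.48. Without empty vector 3 the difference was 1.00 (adjusted p = 0.092).

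The taurine carrier gene Slc6a6 differed little but evenly: 10.91, 10.99 and 10.92 against 11.16, 11.17 and 11.13 (0.22 ± 0.06, adjusted p = 0.11). The creatine carrier gene Slc6a8 (0.13), the dopamine carrier gene Slc6a3 (0.06) and the neuronal amino acid carrier gene Slc6a17 (0.22) lay just above background, with adjusted p from 0.45 to 0.66. The 12 other Slc6a genes, among them the serotonin, noradrenaline and GABA carrier genes Slc6a4, Slc6a2 and Slc6a13, were within the background range, with differences from -0.07 to 0.22.

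**Figure D2:**
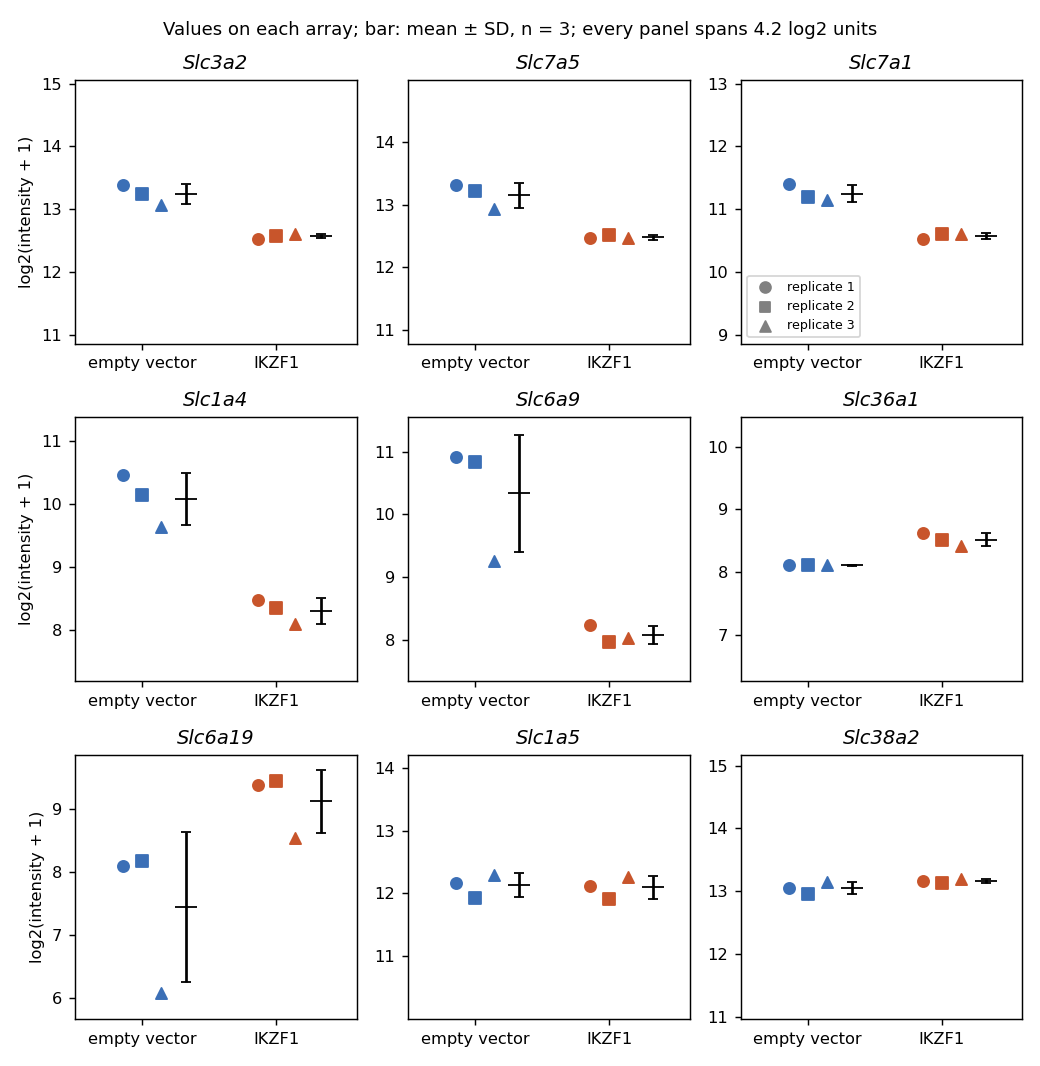
Values on each array for 9 transporter genes, as log2(intensity + 1), with replicate 1 as a circle, 2 as a square and 3 as a triangle, and the mean ± SD of each group (n = 3) beside them. Slc3a2, Slc7a5, Slc7a1, Slc1a4 and Slc6a9 are lower on every IKZF1 array, Slc36a1 and Slc6a19 higher, and Slc1a5 and Slc38a2 overlap.

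The Slc38 family of sodium-coupled neutral amino acid transporters had 0 of 11 members called in limma, 4 with an unadjusted p under 0.05 (18.4% of all genes), and 0 with the block. Slc38a2, for the glutamine and alanine carrier SNAT2, a known target of ATF4, read 13.06, 12.95 and 13.15 with the empty vector and 13.17, 13.13 and 13.19 with IKZF1. The groups overlapped, and the difference of 0.11 had an interval from -0.06 to 0.27, whose lower end lies above the falls of Slc1a4, Slc7a1, Slc3a2 and Slc7a5. Slc38a1, for SNAT1, read 12.30, 12.26 and 12.19 against 12.54, 12.61 and 12.45. Its IKZF1 arrays were all higher (0.28 ± 0.07, adjusted p = 0.092), but its other probe set gave -0.01 ± 0.07. Slc38a9, whose product senses arginine at the lysosome for mTORC1, read 9.57, 9.74 and 9.24 against 9.91, 9.93 and 9.79 (0.36, adjusted p = 0.21), and 0.23 by its other probe set (adjusted p = 0.17 among all probe sets). Slc38a7, for a lysosomal glutamine exporter, read 9.86, 9.78 and 9.18 against 9.18, 9.13 and 9.14. Empty vector 3 alone among the empty vector arrays lay at the level of the IKZF1 arrays. The difference was -0.46 (adjusted p = 0.24), and leaving that array out gave -0.67 (adjusted p = 0.0068). Slc38a6 (-0.13), Slc38a10 (0.06), Slc38a8 (0.23) and the histidine and glutamine carrier gene Slc38a5 (0.25) had adjusted p from 0.18 to 0.63, and Slc38a3, Slc38a4 and Slc38a11 were within the background range.

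Slc36a1 encodes PAT1, a proton-coupled exporter of small amino acids from the lysosome that also acts in mTORC1 signalling. It read 8.12, 8.11 and 8.12 with the empty vector and 8.62, 8.51 and 8.41 with IKZF1. The empty vector arrays were almost equal, and every IKZF1 array was higher. The rise was 0.40 ± 0.07 (SE; adjusted p = 0.045), or 1.32 times. It did not pass once arrays were centred by median (0.32, adjusted p = 0.11) or with a prior variance that follows the mean level (adjusted p = 0.088). Leaving out any 1 array also ended the call (adjusted p from 0.051 to 0.20). Slc36a4, for the related PAT4, followed the replicate number more than the group, with 6.65, 6.10 and 8.31 against 7.68, 6.62 and 8.29 (0.51, adjusted p = 0.69). Slc36a2 and Slc36a3 were within the background range.

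The Slc36a1 promoter is shown because it holds 2 copies of CACGTG, the palindromic E-box core bound by basic helix-loop-helix factors such as Myc and TFEB. The stretch (chr11:55204240-55204342, GRCm38.p6, plus strand) has both in capitals, 1 of them 31 bases before the start and the other across it. CACGTG stands in 7.15% of all windows and in 9 of the 64 member windows. Besides Slc36a1 the genes were Slc38a7, Slc38a5, Slc43a1, Slc1a6, Slc1a7, Slc6a3, Slc6a16 and Slc7a14, none of them called. Of these Slc1a6, Slc6a16 and Slc7a14 were within the background range.
Slc36a1: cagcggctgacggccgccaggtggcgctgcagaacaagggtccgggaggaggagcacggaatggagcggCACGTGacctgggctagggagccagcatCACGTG

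The Slc43 genes encode facilitators, LAT3 (Slc43a1) and LAT4 (Slc43a2) for branched-chain and other large neutral amino acids and Slc43a3 for purine bases. Slc43a2 read 9.73, 10.05 and 9.32 against 10.32, 10.38 and 10.16. The groups were apart. The difference of 0.59 ± 0.18 did not pass (adjusted p = 0.17) and passed with the block (adjusted p = 0.037). Slc43a1 had 0.18 (10.99, 10.98 and 10.84 against 11.09, 11.27 and 10.99 by array; adjusted p = 0.34) and Slc43a3 0.05 (adjusted p = 0.82), whose sign turned with centring (-0.04). The LAT1 gene Slc7a5 had -0.67 and the LAT4 gene 0.59.

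**Figure D3:**
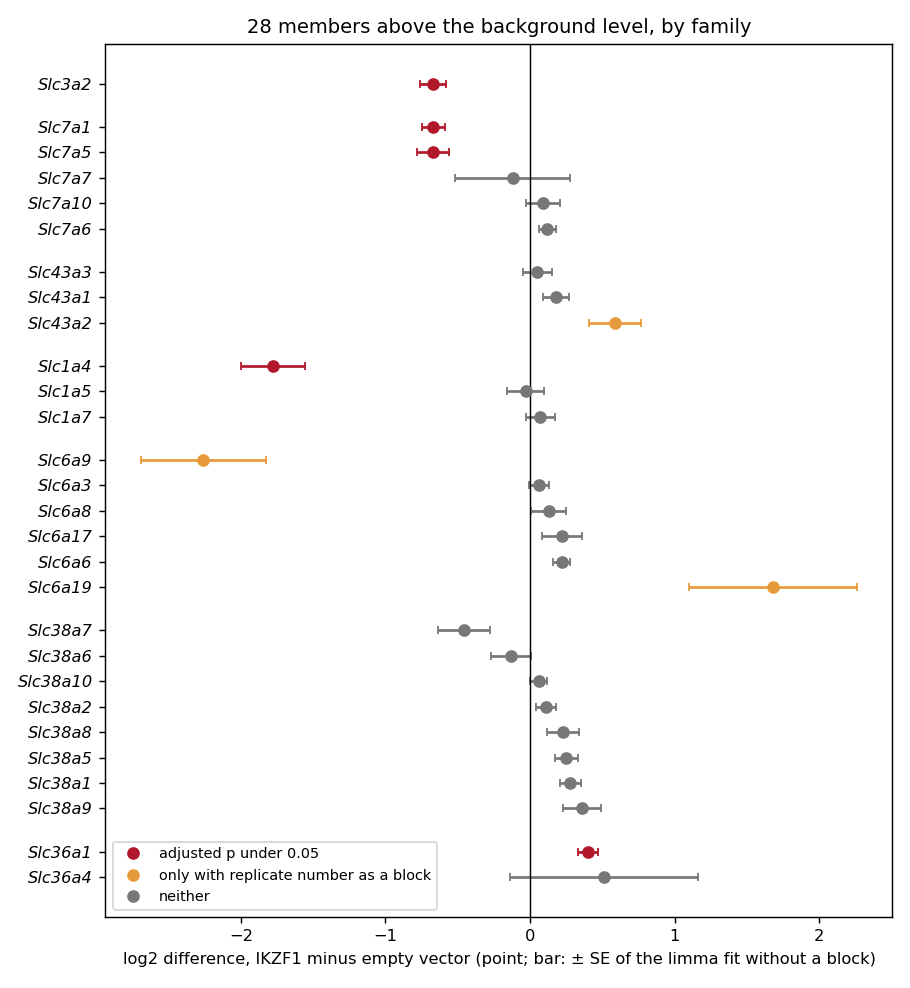
Log2 differences, IKZF1 minus empty vector, of the 28 transporter genes above background, by family (points) with their SE (bars, limma without a block, n = 3 arrays per group). Red points passed without a block (Slc3a2, Slc7a1, Slc7a5, Slc1a4 and Slc36a1), and orange points with replicate number as a block only (Slc6a9, Slc6a19 and Slc43a2).

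Over the 60 genes, all IKZF1 arrays lay below all empty vector arrays for 5 (8.33%, against 11.3% of all genes) and above them for 15 (25%, against 15.2%), the groups being apart for 26.5% of all genes in either direction. Of the 28 members above background 17.9% were apart and lower, against 15.9% of all genes above background. Apart and higher were 32.1% of these members, against 15.5%. The 5 members apart and lower were Slc1a4, Slc3a2, Slc6a9, Slc7a1 and Slc7a5. Of the 15, 6 were within the background range. The 32 genes in that range had differences from -0.37 to 0.25 and an adjusted p of at least 0.27.

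A list of 10 transporter genes known as ATF4 targets was compared with the ATF4 branch itself, both lists having been drawn up with earlier results of these data known. Of the 10, 4 fell and 6 did not pass, where 1.13% of all genes were lower, and 5 fell with the block, where 3.85% were. Of all genes above background, where 8 of the 10 lay, 1.75% were lower, and 5.97% with the block. Slc1a4, Slc3a2, Slc7a1 and Slc7a5 (and Slc6a9 with the block) stood on one side. On the other, Slc1a5, Slc38a2 and Slc43a1 were above background with differences of -0.03, 0.11 and 0.18. Slc7a3 and Slc7a11 were not above it, with -0.37 and 0.01. Slc7a3 lay just under it (6.02) and passed as lower in limma without empty vector 3 (-0.54, adjusted p = 0.038). The median difference of the 10 was -0.52.

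Of 32 measured genes of the ATF4 branch (upstream kinases, ATF4 and its partners, and enzymes it induces), 13 fell, 1 rose and 18 did not pass. The falls are 40.6%, against 1.13% of all genes and 1.75% of those above background, where 30 of the 32 lay. The median difference was -0.44 (0.03 over all genes). With the block 18 fell (56.2%, against 3.85% of all genes and 5.97% of those above background). The largest falls were those of the alanine aminotransferase gene Gpt2 (-2.58), the glutathione-degrading enzyme gene Chac1 (-2.53), the cystathionine gamma-lyase gene Cth (-2.30), the pseudokinase gene Trib3 (-1.70), the lipoprotein receptor gene Vldlr (-1.28), the asparagine synthetase gene Asns and the leucine sensor gene Sesn2 (-1.22 each) and the stress protein gene Nupr1 (-1.20). The riser was Eif2ak3, for the eIF2 kinase PERK (0.34, adjusted p = 0.049), which did not pass with centring (0.25, adjusted p = 0.12), a trended prior (0.059) or any 1 array left out (0.064 to 0.22). Atf4 read 9.92, 9.87 and 9.90 against 9.26, 9.14 and 9.26. Its empty vector arrays were almost level, and it fell by 0.68 ± 0.06 (SE; adjusted p = 0.0073), about as much as Slc3a2, Slc7a1 and Slc7a5.

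**Figure D4:**
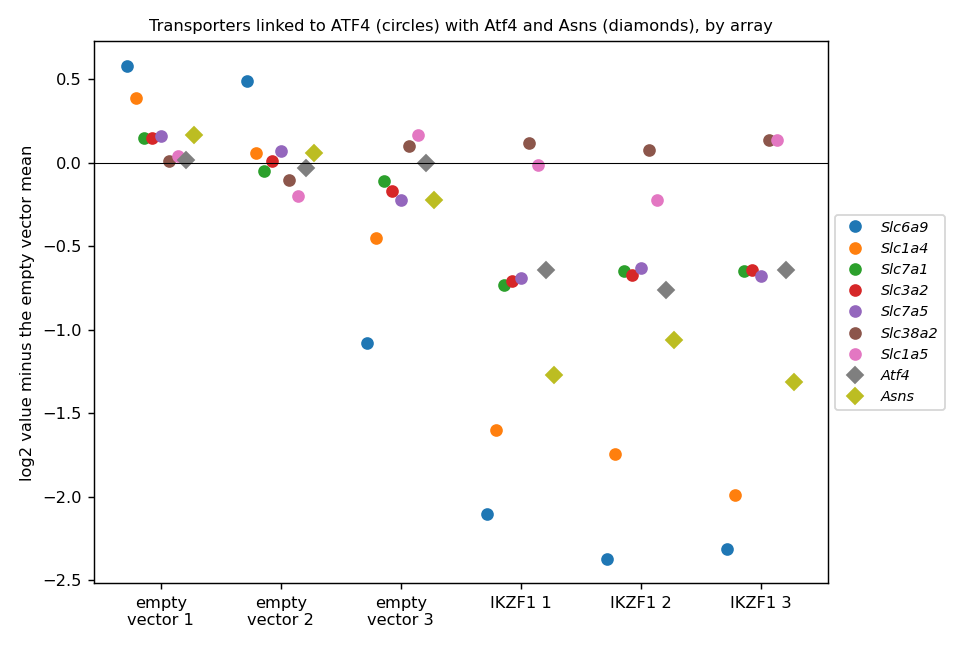
Value on each array minus the empty vector mean (log2) for 7 transporter genes known as ATF4 targets (circles) and for Atf4 and Asns (diamonds). Slc6a9 and Slc1a4 are lower on empty vector 3 than on the other empty vector arrays, Atf4 is level there, and Slc38a2 and Slc1a5 stay near 0 on every array.

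Among 24 measured amino acid transporter genes outside the 7 families, 3 rose in limma (12.5%, against 1.12% of all genes), 0 fell and 21 did not pass. Of all genes above background, where 19 of the 24 lay, 1.67% rose. An unadjusted p under 0.05 was found for 8 of the 24, and for 18.4% of all genes. Slc17a8, a vesicular glutamate transporter gene, rose by 2.08 (adjusted p = 0.0018), the lysosomal histidine and peptide transporter gene Slc15a4 by 0.62 (adjusted p = 0.049) and the mitochondrial glutamate carrier gene Slc25a18 by 0.57 (adjusted p = 0.037). With centring Slc15a4 and Slc25a18 did not pass (adjusted p = 0.055 and 0.059), nor did Slc15a4 with cyclic loess (0.053) or Slc25a18 with a trended prior (0.053). Slc66a1, for the lysosomal exporter of cationic amino acids, read 7.91, 8.02 and 7.51 against 8.48, 8.59 and 8.25, and its difference of 0.63 passed with the block only (adjusted p = 0.10 and 0.012).

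Of 31 measured genes of amino acid sensing upstream of mTORC1, 1 fell and 1 rose, with 29 not past the threshold and a median difference of -0.02. Each is 3.23% of the list, where 1.13% of all genes were lower and 1.12% higher. Of all genes above background, where 30 of the 31 lay, 1.75% were lower and 1.67% higher. In limma 10 of the 31 had an unadjusted p under 0.05, as had 18.4% of all genes. The one that fell was Sesn2, which also stands in the ATF4 list. The one that rose was Castor2, a relative of the arginine sensor gene Castor1 (0.47, adjusted p = 0.042). It did not pass by the mean of its probe sets (0.28, adjusted p = 0.16), with centring (0.38, adjusted p = 0.11) or with a trended prior (adjusted p = 0.071). Of the genes named here as called from this list, the ATF4 branch and the other transporters, Chac1 and Slc17a8 passed without each array in turn, and each of the others lost its call without at least 1 array.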

How the data were processed

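The authors deposited an intensity per probe set and array, on a linear scale (11.1 to 23523, array medians 100.2 to 107.2). Per the submitters' processing notes these were normalized by RMA; the software and its parameters: not given in the sources used here. Of 35421 probe sets 21789 carry 1 symbol in the platform's gene table, 1621 several and 12011 are unnamed here. Symbols were brought up to date through the gene number for 21698 and an accession for 3, and 88 were kept; the update changed 2 symbols, 0 of them members. The intensities carry no read depth, and the number of arrays limits the precision.

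From these, log2(intensity + 1) was computed, and limma 3.58.1 in R 4.3.3 (lmFit, eBayes, 2-sided) was fitted over 19936 genes with group as the only term. Log ratios between members were compared by exact permutation over arrays. The members and gene lists were chosen with earlier results of these data known. Named are Ikzf1, every member above background or past the threshold, and of the other lists the genes past the threshold, at most 8 by size; markers and further genes were named after their values were seen.

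Equal replicate numbers stand in the titles of both groups. Over genes, deviations from the group mean correlated between arrays of the same number with r = 0.24, 0.60 and 0.66, all above 0.1. By this mark the numbers were taken as pairs in the blocked fit, whose value is given where it changes a call. Different numbers gave r from -0.68 to 0.11. Empty vector 1 with IKZF1 2 (0.11) also lay above 0.1, so the mark does not tell equal from different numbers. Deviations within a group are tied to each other, and so are these r. What a replicate number marks is not in the labels, and the pairing was not tested. Promoter windows are from RefSeq (GRCm38.p6). Alternatives were the block, leaving out each array, a pseudocount of 16, genes above background only, the mean of probe sets, centring, cyclic loess, array weights and a trended prior.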

Additional observations from a re-analysis of the deposited data

How the results depend on the processing

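Of the 28 transporter genes above background, 21 kept the sign of their difference in all 14 alternatives. The 4 falls passed in all of them but those that left out an array other than empty vector 3. With replicate number as a block 3 members were higher in place of 1 and 1438 genes passed in place of 448, and with array weights 2 members were higher and 1481 genes passed. Centring and a trended prior each left 0 members higher. Without 1 array, 0 to 7 members were lower, 0 higher, and 24 to 947 genes passed. The block changed the call of no member other than Slc6a9, Slc6a19 and Slc43a2 (adjusted p = 0.021, 0.023 and 0.037).

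Slc6a9 also passed among genes above background only (adjusted p = 0.049), with centring (-2.35, adjusted p = 0.046), a trended prior (0.045) and array weights (-2.57, 0.0063). With array weights Slc6a6 (0.22, adjusted p = 0.042) and Slc38a7 (-0.59, 0.040) passed. Signs turned for differences that were not called: Slc1a5 with cyclic loess (0.01) and array weights (0.04), and from -0.13 to 0.06 without 1 array; Slc1a7 with centring and cyclic loess (-0.01 each); Slc38a10 with centring (-0.03); Slc6a3 with centring (-0.02) and cyclic loess (-0.03); Slc43a3 with centring and array weights (-0.04 each), and from -0.06 to 0.11 without 1 array; Slc7a7, from -0.60 to 0.23 without 1 array; and Slc7a10, from -0.02 to 0.21 without 1 array. The cause was not tested. The number of members above background was between 21 and 29. The 3 arrays a group limit the precision.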
